A study of Homo sapiens with 2 samples.

Results

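RNA of 9 genes of steroid metabolism and steroid response was described in ARP1, a human multiple myeloma (MM) line. The genes are the steroid reductases SRD5A1, SRD5A2 and SRD5A3, the 17β-hydroxysteroid dehydrogenases HSD17B4, HSD17B8, HSD17B10 and HSD17B12, the steroid sulfatase STS and the glucocorticoid receptor NR3C1. They were chosen by name, and all 9 were found among the 57485 genes listed for each library. The cells, called ARP1-SRD5A1-KD, carried an SRD5A1 shRNA in the TRIPZ lentiviral vector, which expresses the hairpin from a promoter that doxycycline (Dox) switches on. One group was 1 library labelled as untreated and the other was 1 library labelled as treated with Dox, and both carried the hairpin vector. Below, with Dox and without Dox stand for these labels. The treated library's genotype label gives SRD5A2 as the hairpin target, whereas its title and the series design give SRD5A1. The dose and time of Dox for these libraries, and whether the cells were 1 clone or a pool, are not given in the sources used here. Neither library was of cells with Dox and without the hairpin, so Dox and the hairpin cannot be told apart.

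Steroid hormones act mainly through nuclear receptors, and enzymes set which hormone reaches the receptor. Steroid 5α-reductases turn testosterone into dihydrotestosterone, 17β-hydroxysteroid dehydrogenases interconvert keto and hydroxy forms of sex steroids, and steroid sulfatase frees steroids from their sulfates. Several members of these families do other work in most cells, such as fatty acid breakdown in peroxisomes, fatty acid elongation or the making of dolichol for protein glycosylation. The glucocorticoid receptor is well known in myeloma because dexamethasone, a synthetic glucocorticoid, is used to treat the disease.

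The main result was that ARP1 cells held much RNA of the multifunctional dehydrogenases and little SRD5A3 RNA. RNA of SRD5A1, STS and NR3C1 was moderate without Dox. With Dox, NR3C1 (59.8 FPKM) stood above the dehydrogenase HSD17B8 (39.19 FPKM). SRD5A2 was hardly detected. Between the libraries, NR3C1 stood apart with a 3.88-fold higher level with Dox. SRD5A1 was 1.98-fold higher with Dox although the cells are named for its knockdown. The title and series design name SRD5A1 as the hairpin target, whereas the treated library's genotype label names SRD5A2. All directions below thus rest on the labels. The remaining 6 members with at least 1 FPKM differed by 1.47-fold or less.

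Expected counts came to 45918570 without Dox and 48728927 with Dox, at which 3 counts are 0.0653 and 0.0616 CPM. CPM are counts scaled to the library total. Levels are given as FPKM, which are counts divided by effective length in kilobases and by the library total. Ratios are log2 of (FPKM + 0.1) in the library labelled with Dox over that in the library labelled without Dox, which understates the change of low genes. Each ratio has a 95% counting interval (Clopper-Pearson), which was computed without the pseudocount and covers counting error only. With 1 library per condition there was no replicate error and no test of the conditions. A gene is called higher or lower in counts of genes where it differs by more than 2-fold and has at least 1 FPKM in at least 1 library. Of 14859 such genes, 17.0% were higher and 6.41% lower, and the median log2 ratio was 0.15. Of the genes past 2-fold, 72.6% were thus higher, a share that was 57.3% for counts scaled by TMM factors and 56.4% for counts scaled by DESeq2 size factors. Plasma cell markers were high in both libraries, with XBP1 at 834.39 and 715.87 FPKM and IRF4 at 409.73 and 513.92 FPKM. All 10 markers on that list summed to 2437 and 2337 FPKM, a sum carried by the most abundant of them. Within the list, SLAMF7 went from 15.73 to 41.75 FPKM and TNFRSF17 from 97.72 to 203.73 FPKM, both past 2-fold, SDC1 went from 344.56 to 236.58 FPKM, and CD27 stayed below 1 FPKM. Of the mature B cell markers, PAX5 had 1.32 and 0.79 FPKM, MS4A1 had 14 and 24 counts and CD22 had 0 counts in both libraries. None of the 12 T cell, myeloid and stromal markers reached 1 FPKM. Of 4 erythroid markers, HBA1 had 3.04 and 1.77 FPKM and HBB had 0.43 and 1.39 FPKM. In bulk RNA, fewer cells that express a gene and less RNA per cell cannot be told apart.

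The promoters of the members with the largest ratios, SRD5A1 and NR3C1, are shown as 300 bases from 250 before to 50 after a RefSeq transcription start of GRCh38.p14. SRD5A1 has 1 such window, at chr5:6633190-6633489 on the forward strand. NR3C1 has 7 and is read on the reverse strand. Of its windows, the one at chr5:143403637-143403936 has its start within 50 bases of the starts of 2 GENCODE transcripts, and the one at chr5:143435463-143435762 is at the upstream end of the gene. The window with its start at 143434809, not shown, also has 2 such transcripts and held none of the motifs searched. Capitals mark the GC box (GGGCGG), the CCAAT box (named by its letters) and the TATA box (TATAAA), each searched on both strands.
SRD5A1: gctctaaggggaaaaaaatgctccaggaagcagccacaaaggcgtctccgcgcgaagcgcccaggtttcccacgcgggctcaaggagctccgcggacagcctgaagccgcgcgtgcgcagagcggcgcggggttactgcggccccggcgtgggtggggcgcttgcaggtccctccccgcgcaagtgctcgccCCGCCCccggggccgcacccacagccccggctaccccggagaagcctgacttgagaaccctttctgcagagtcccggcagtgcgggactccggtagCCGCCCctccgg
NR3C1 at the GC-rich start: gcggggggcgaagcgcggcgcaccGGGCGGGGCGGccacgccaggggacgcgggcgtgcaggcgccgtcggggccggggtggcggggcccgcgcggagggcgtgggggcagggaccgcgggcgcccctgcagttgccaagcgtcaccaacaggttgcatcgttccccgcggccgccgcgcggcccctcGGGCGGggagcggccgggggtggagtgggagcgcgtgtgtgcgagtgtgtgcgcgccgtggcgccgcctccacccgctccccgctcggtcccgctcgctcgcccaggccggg
NR3C1 at the upstream start: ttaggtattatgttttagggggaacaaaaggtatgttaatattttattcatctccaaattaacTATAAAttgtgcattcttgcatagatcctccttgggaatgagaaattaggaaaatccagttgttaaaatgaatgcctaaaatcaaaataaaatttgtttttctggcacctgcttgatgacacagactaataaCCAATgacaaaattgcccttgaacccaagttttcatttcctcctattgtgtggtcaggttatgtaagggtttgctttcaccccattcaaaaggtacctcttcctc
The SRD5A1 window was 71.0% G and C, against a median of 58.7% over all 35116 RefSeq windows, and held 2 GC boxes, at 58 bases before the start and at 38 after it. The GC-rich NR3C1 window was 82.3% G and C and held 3 GC boxes, the first 2 of which share bases. The upstream NR3C1 window was 34.7% G and C, with no GC box, 1 CCAAT box and 1 TATA box. A GC box was in 45.0% of all windows, a CCAAT box in 34.6% and a TATA box in 11.5%. Neither SRD5A1 nor any of the 7 NR3C1 windows held the receptor half-site AGAACA, the cAMP response element TGACGTCA or the core TGATGNAA of the element bound by ATF4 with C/EBP factors. These letters were in 14.8%, 1.8% and 3.6% of all windows, respectively. A match of letters describes the window and does not show binding. Over the 8 members with a window, 19 windows in all, the half-site was found in 2 of the 5 STS windows and the ATF4 core in the HSD17B4 window. Neither of these 2 STS windows has its start within 50 bases of an STS transcript start in GENCODE. The STS window at 7219456 does, and it held no half-site.

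Among the reductases, SRD5A1 was the leading form. SRD5A1 (ENSG00000145545.11) is on chromosome 5 from 6633343 to 6674386, forward strand, in GENCODE 29 on GRCh38, as are all positions of genes below. It had 1375 counts (13.04 FPKM) without Dox and 3014 counts (25.88 FPKM) with Dox. Its log2 ratio of 0.98 (0.90 to 1.08) was just under the 2-fold limit, which its counting interval spans, and the ratio of its counts over library totals was 1.05, past that limit. The level of SRD5A1 was above that of 46.0% of the tested protein-coding genes without Dox and of 63.6% with Dox. The pseudogene SRD5A1P1 had 0 counts in both libraries.
SRD5A2, the form typical of prostate, lies on the reverse strand of chromosome 2 from 31522480 to 31581067. It had 6 counts (0.03 FPKM) without Dox and 19 counts (0.09 FPKM) with Dox. Both values were below 1 FPKM and the gene was left out of the counts of members. The interval of its ratio ran from 0.20 to 3.19, so its size was not fixed at this depth.
SRD5A3 (chromosome 4, forward strand, 55346109 to 55373096) makes dolichol by reducing polyprenol. It went from 508 counts (5.68 FPKM) to 407 counts (4.51 FPKM), a log2 ratio of -0.33 (-0.52 to -0.14), which was -0.61 when counts were scaled by TMM factors. SRD5A3 and SRD5A1 thus had opposite signs, and the FPKM of SRD5A1 was 2.3 times that of SRD5A3 without Dox and 5.74 times with Dox. SRD5A1 made up 69.5% of the summed FPKM of the 3 reductases without Dox and 84.9% with Dox. An RNA of the opposite strand, SRD5A3-AS1, overlaps SRD5A3 exons and had 19 counts in both libraries, a small share of the SRD5A3 counts. The counting is not stated to use strand, so reads of this overlap cannot be told apart.

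The levels of the members spanned more than the differences between libraries. HSD17B10 was the highest and SRD5A2 the lowest member in both. No counting intervals of neighbours in the order overlapped in either library. STS, NR3C1 and SRD5A1 were next to each other in the library labelled without Dox, at 17.11, 15.33 and 13.04 FPKM. With Dox, NR3C1 stood above HSD17B8, and SRD5A1 stood above STS.

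**Figure D1:**
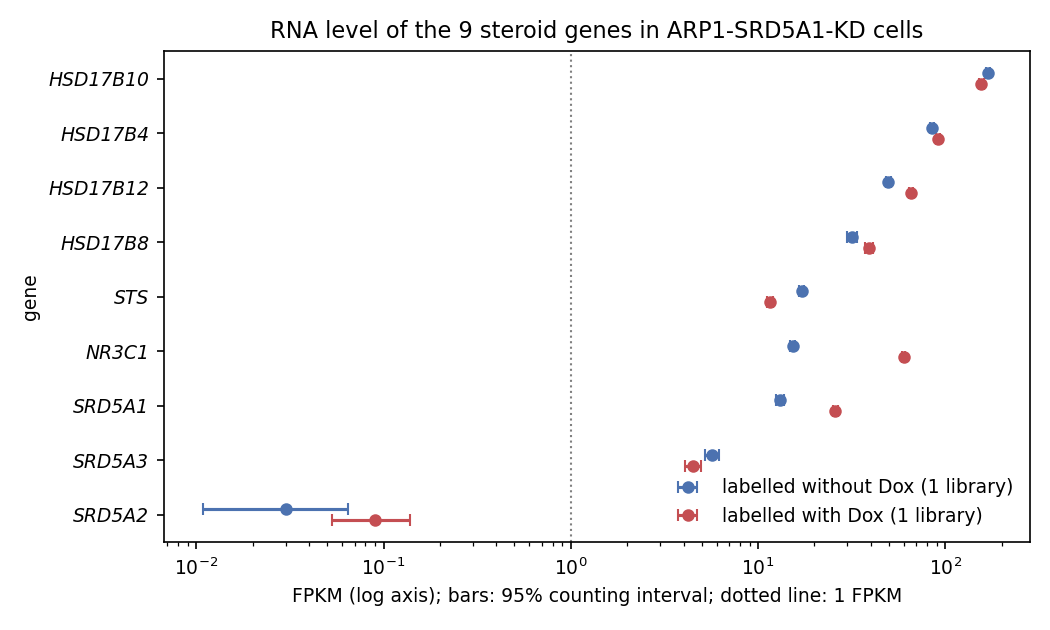
FPKM of the 9 members on a log axis, with 1 point per library, bars for the 95% counting interval (exact Poisson) and a dotted line at 1 FPKM. SRD5A2 is far below 1 FPKM in both libraries, and the points of NR3C1 (15.33 and 59.8 FPKM) are farthest apart among the members above 1 FPKM.

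The 4 17β-hydroxysteroid dehydrogenases were the most abundant members without Dox, and none of them differed by 2-fold. With Dox, 1 of them, HSD17B8 (39.19 FPKM), was below NR3C1 (59.8 FPKM). HSD17B10, a mitochondrial enzyme of isoleucine breakdown that is also a subunit of mitochondrial RNase P, is on the reverse strand of chromosome X from 53431258 to 53434373. It had 5494 counts (169.25 FPKM) without Dox and 5322 counts (155.76 FPKM) with Dox, a log2 ratio of -0.12 (-0.18 to -0.07), which ran from -0.35 to -0.02 over the alternative scalings. Its level was above that of 94.8% and 94.9% of tested protein-coding genes.
HSD17B4, the peroxisomal multifunctional enzyme of fatty acid and bile acid side-chain breakdown, is on chromosome 5 from 119452443 to 119637199, forward strand. It had 5031 counts (85.02 FPKM) and 5925 counts (91.86 FPKM). Its log2 ratio of 0.11 (0.06 to 0.17) was below the median of all genes, and its sign turned when counts were scaled by TMM factors (-0.06) or DESeq2 size factors (-0.07). The direction of HSD17B4 is therefore not given. FAM170A, a protein-coding gene on the same strand, overlaps HSD17B4 exons, so a part of the HSD17B4 reads may belong to FAM170A.
HSD17B12, a 3-ketoacyl-CoA reductase of fatty acid elongation, is on chromosome 11 from 43680558 to 43856617, forward strand. It had 4157 expected counts (49.71 FPKM) without Dox and 6288 (65.37 FPKM) with Dox, a log2 ratio of 0.39 (0.34 to 0.45). Its exons overlap 3 other annotated genes, 2 of them antisense, so a part of its reads may be theirs.
HSD17B8, which forms a 3-ketoacyl reductase of mitochondrial fatty acid synthesis together with CBR4, is on chromosome 6 from 33204642 to 33206831, forward strand. It had 1070 counts (31.85 FPKM) and 1384 counts (39.19 FPKM), a log2 ratio of 0.30 (0.18 to 0.42), which was 0.07 with DESeq2 size factors. These 4 genes carried most of the RNA of the family. Of the summed FPKM of 12 HSD17B genes, 365.1 without Dox and 383.5 with Dox, HSD17B10 took 46.4% and 40.6%, HSD17B4 23.3% and 24.0%, HSD17B12 13.6% and 17.0%, and HSD17B8 8.72% and 10.2%.

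Classical sex-steroid forms of the family were low. HSD17B1, which makes estradiol in placenta and ovary, had 0.89 FPKM without Dox and 2.48 with Dox, and HSD17B3, which makes testosterone in testis, had 0 counts in both. HSD17B2, which oxidises estradiol and testosterone, had 0 and 1 count. Of 11 related dehydrogenases outside the members, 7 were tested, of which HSD17B1 was higher (log2 ratio 1.38, 1.24 to 1.73) and 0 were lower, with a median of 0.42. The highest was RDH11, a retinol dehydrogenase, at 25.2 and 33.8 FPKM. HSD17B7, an enzyme of cholesterol synthesis, had 9.4 and 9.68 FPKM. Its pseudogene HSD17B7P2 had 83 and 122 expected counts, so reads of this pair could be split between them.

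STS, the steroid sulfatase, is on chromosome X from 7219456 to 7354810, forward strand, and was the member with the lowest ratio. It had 4932 counts (17.11 FPKM) without Dox and 3553 counts (11.62 FPKM) with Dox. Its log2 ratio was -0.55 (-0.62 to -0.50), a level 1.47-fold lower with Dox and within 2-fold. Its pseudogene STSP1 had 0 counts. Of the 18 listed sulfatases and sulfatase-modifying factors beside STS, 12 were tested, 2 were higher and 0 lower, with a median of 0.17. SULF1, which trims heparan sulfate outside the cell, went from 32.04 to 76.03 FPKM (1.24) and ARSG, a lysosomal sulfatase, from 2.7 to 7.05 FPKM (1.35). SUMF2 had the highest level of the list, 111.07 and 160.99 FPKM, while SUMF1, the sulfatase activator, had 2.99 and 4.45 FPKM. GALNS, a lysosomal sulfatase, had the lowest ratio among those tested, -0.60.

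NR3C1, the glucocorticoid receptor, is on the reverse strand of chromosome 5 from 143277931 to 143435512. It had 3781 counts (15.33 FPKM) without Dox and 16830 counts (59.8 FPKM) with Dox. The log2 ratio was 1.96 (1.91 to 2.02), above that of 97.3% of tested protein-coding genes with the labels as given. The ratio of counts over library totals was 2.07, since the mean length of NR3C1 RNA in the tables was 5613 bases without Dox and 6022 with Dox. NR3C1 stood above 51.0% of tested protein-coding genes without Dox and above 84.2% with Dox.
Among the 8 members tested, 1 was thus higher, which is NR3C1, and 0 were lower, beside 17.0% and 6.41% of all genes tested. With 8 genes, such a count is no result about the members as a group. Their median log2 ratio was 0.20, and 4 were above and 4 below the median of all genes. Among protein-coding genes alone, 11.8% were higher and 6.03% lower and the median was 0.07, with 5 members above it and 3 below.

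**Figure D2:**
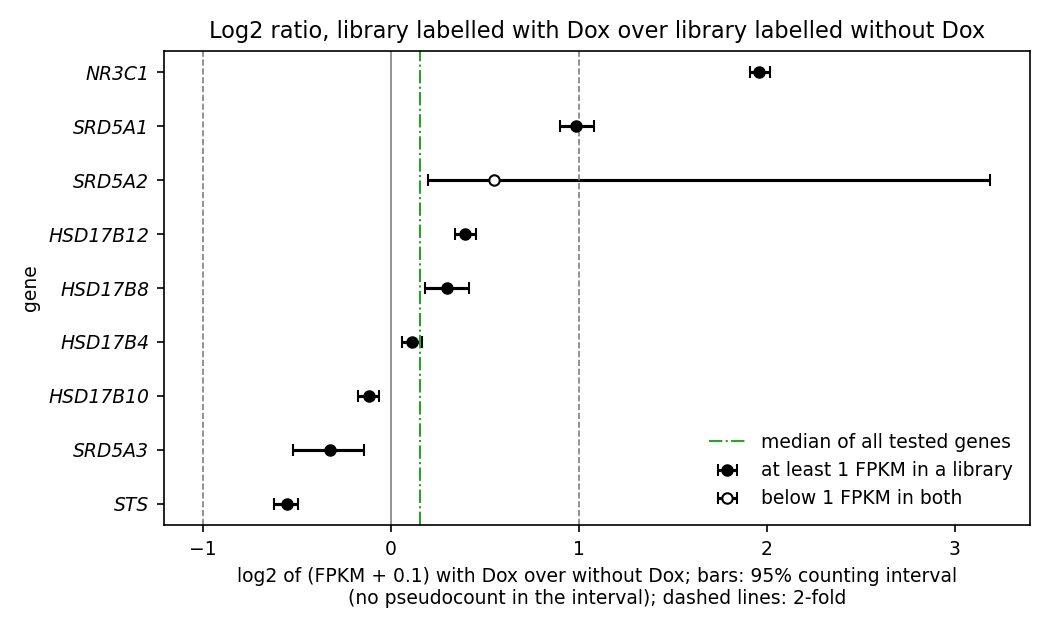
Log2 ratio of each member with its 95% counting interval, with dashed lines at 2-fold and a green line at the median of all tested genes (0.15). NR3C1 (1.96) is alone past 2-fold, SRD5A1 (0.98) touches the limit, STS (-0.55) is lowest, and the open point is SRD5A2, which was below 1 FPKM.

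The related steroid hormone receptors named here were lower than NR3C1 in both libraries. NR3C2, the mineralocorticoid receptor, which also binds glucocorticoids, had 5.16 FPKM without Dox and 5.2 FPKM with Dox, and no ratio beyond counting error (-0.12 to 0.15). Its counts went from 737 to 1236, while its mean listed length went from 3354 to 5122 bases, so its ratio of counts over library totals was 0.66. The estrogen receptors ESR1 and ESR2 had 0.21 FPKM or less, and the progesterone receptor PGR had 0 counts. Of the summed FPKM of NR3C1 and NR3C2, NR3C1 made up 74.8% without Dox and 92.0% with Dox. Of the 16 receptors of the wider list, 9 were tested, 0 were higher and 1 was lower, with a median of 0.01. The lower one was VDR, the vitamin D receptor, which went from 23.77 to 9.42 FPKM (-1.33, -1.42 to -1.25). PGRMC2, a membrane heme-binding protein named for progesterone, and NR1H2, an oxysterol receptor, had the highest levels, 57.78 and 54.56 FPKM without Dox and 66.82 and 58.32 FPKM with Dox.

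The glucocorticoid receptor is held by HSP90 and its co-chaperones before it binds hormone. RNA of several of these was lower in the library in which NR3C1 was higher. FKBP4, the immunophilin that helps to carry the receptor to the nucleus, went from 93.31 to 20.99 FPKM, a log2 ratio of -2.15 (-2.21 to -2.10). HSP90AB1, the constitutive HSP90, went from 1650.74 to 550.57 FPKM (-1.58). HSP90AA1, the inducible HSP90, went from 176.19 to 90.86 FPKM and STIP1, which passes clients from HSP70 to HSP90, from 235.58 to 121.93 FPKM, both with a log2 ratio of -0.95. These latter values were within 2-fold. The p23 co-chaperone PTGES3 stayed close, at 199.45 and 194.38 FPKM. PPID, a further co-chaperone, had the other sign, at 79.89 and 100.94 FPKM (0.34), within 2-fold. Of the 15 chaperones and coregulators, all were tested, 0 were higher and 2 were lower (FKBP4 and HSP90AB1). Their median was -0.04, with 7 genes above 0 and 8 below. Their summed FPKM was 2747 without Dox and 1419 with Dox, and most of the difference between these sums came from HSP90AB1. Among the coregulators, NCOA2 had the highest ratio, 0.85, within 2-fold.

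Genes known to be induced by glucocorticoids through the receptor differed in both directions. Of 22 on the list, 16 were tested, 2 were higher (TSC22D3 and KLF9) and 2 lower (GLUL and MT1X), and the median was 0.26. TSC22D3, which encodes the glucocorticoid-induced leucine zipper GILZ, had 129 counts and 1.85 FPKM without Dox and 4451 counts and 56.36 FPKM with Dox, a log2 ratio of 4.86 (4.68 to 5.20). KLF9, a transcription factor, went from 3.11 to 11.88 FPKM (1.90, 1.81 to 2.05). These genes had the highest ratios of the list, and KLF13, a related factor, was next at 0.87.
Other members of the list were lower with Dox, also beyond counting error. GLUL, the glutamine synthetase, went from 25.52 to 9.38 FPKM (-1.43, -1.56 to -1.33) and MT1X, a metallothionein, from 36.56 to 17.02 FPKM (-1.10, -1.37 to -0.84). FKBP5, a co-chaperone that receptor activity usually raises, had 67.81 and 59.17 FPKM (-0.20, -0.24 to -0.16). PER1, SGK1, NFKBIA and DUSP1, a clock gene, a kinase, an NF-κB inhibitor and a phosphatase, had log2 ratios from 0.25 to 0.63. CEBPD had 56 and 5 counts, below 1 FPKM in both, and CRISPLD2 had 0 counts.

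Enzymes that would make a glucocorticoid or an androgen from cholesterol were mostly not detected. CYP11A1, the first enzyme of the pathway, and HSD3B2, CYP11B1 and CYP11B2 had 0 counts in both libraries, which allows up to 0.0653 and 0.0616 CPM. HSD3B1, the 3β-hydroxysteroid dehydrogenase outside the adrenal, had 0 and 3 counts. Of 13 genes of steroid synthesis, 7 were tested, 2 were higher and 0 lower, with a median of 0.48 that turned to -0.24 over genes with 5 FPKM or more. The 2 higher genes were CYP17A1 and CYP21A2. CYP17A1, the 17α-hydroxylase, had 2 and 9.34 expected counts, and its FPKM of 0.03 and 1.14 reflects an effective length of 1627 bases without Dox and 167 bases with Dox. CYP21A2, the 21-hydroxylase, had 8 and 155.28 expected counts (0.12 and 1.89 FPKM), and it has a near-identical pseudogene, so its reads are uncertain. CYP19A1, the aromatase, had 131 counts (1.64 FPKM) and 307 counts (3.0 FPKM), a log2 ratio of 0.83 (0.57 to 1.17). The electron carriers that steroid enzymes share with other pathways were present, with CYB5A at 57.55 and 57.05 FPKM and POR at 42.42 and 36.01 FPKM. FDX1, the mitochondrial carrier, had 6.41 and 4.42 FPKM.

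Steroid inactivation and conjugation was also thinly represented. Of 18 genes, 6 were tested, 1 was higher and 1 lower, with a median of -0.12 that turned to 0.39 over genes with 5 FPKM or more. HSD11B2, which inactivates cortisol, was the lower one, with 60 counts (1.41 FPKM) without Dox and 11 counts (0.28 FPKM) with Dox, a log2 ratio of -1.99 (-3.42 to -1.40). HSD11B1, which regenerates cortisol, had 0 and 2 counts. PAPSS1, which makes the sulfate donor of sulfotransferases, was the higher one, at 9.91 and 22.5 FPKM (1.17). The ratio of PAPSS1 counts over library totals was 0.92, within 2-fold, as its mean listed length went from 2416 to 2054 bases. PAPSS2, the second form, had 21.77 and 21.54 FPKM. SULT1A1, a phenol sulfotransferase, went from 10.42 to 5.5 FPKM (-0.91) and H6PD, which supplies NADPH to HSD11B1, from 4.41 to 7.7 FPKM (0.79), both within 2-fold. AKR1C1, AKR1C2, AKR1C3 and AKR1C4, which reduce steroid ketones, were below 1 FPKM in both libraries. Of these, AKR1C3 had 31 and 4 counts (-2.22, -4.92 to -1.46) and AKR1C4 had 0 counts in both.

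Androgen-induced genes were followed because the product of SRD5A1 is the strongest androgen. The prostate genes KLK2, KLK3 and TMPRSS2 had 7 counts or fewer in either library. Of 13 genes, 8 were tested, 1 was higher and 2 were lower, with a median of 0.20. ACSL3, an acyl-CoA synthetase, went from 19.51 to 43.73 FPKM (1.16), ABCC4, an exporter, from 9.97 to 4.45 FPKM (-1.15) and HPGD, which inactivates prostaglandins, from 2.21 to 0.63 FPKM (-1.66). ELL2, an elongation factor of RNA polymerase that plasma cells use for immunoglobulin RNA, had the highest level of the list at 167.9 and 206.06 FPKM. NDRG1, a stress-response gene, had 28.86 and 54.02 FPKM (0.90).

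The pathways in which the multifunctional members work were compared with the members themselves. SRD5A3 makes dolichol, the lipid that carries sugars for N-glycosylation. Of the 22 genes of dolichol and lipid-linked oligosaccharide synthesis, all were tested, 1 was higher (ALG9, a mannosyltransferase, 10.69 to 21.78 FPKM, 1.02) and 1 lower (DOLK, the dolichol kinase, 9.34 to 3.78 FPKM, -1.28), with a median of 0.03. The level of SRD5A3 was low beside those of ALG3, 161.74 and 121.7 FPKM, and DPM3, 66.57 and 113.76 FPKM.
HSD17B12 carries out the second step of the elongation of very long fatty acids. Its partners mostly had the other sign. Of the 12 genes of elongation, 7 were tested, 0 were past 2-fold in either direction and the median was -0.46. Below 0 were 6 of 7, a small number of genes, beside 45.6% of tested protein-coding genes. ELOVL6, the elongase of palmitate, went from 49.73 to 27.94 FPKM (-0.83), HACD3, a dehydratase, from 54.88 to 33.34 FPKM (-0.72) and TECR, the final reductase, from 143.24 to 104.18 FPKM (-0.46). ELOVL5, at 0.30, was the only tested elongation gene above 0, beside 0.39 for HSD17B12.
HSD17B4 works after the acyl-CoA oxidases of peroxisomes. Of 19 genes of peroxisomal β-oxidation, 18 were tested, 4 were higher and 0 lower, with a median of 0.17. AMACR, the racemase that prepares branched fatty acids and bile acid precursors for this pathway, went from 2261 expected counts (25.05 FPKM) to 11736 (126.53 FPKM), a log2 ratio of 2.33 (2.27 to 2.40). CROT, a carnitine transferase, went from 2.82 to 6.07 FPKM (1.08). ABCD2, a carrier of very long fatty acids into peroxisomes, went from 65 to 655 counts and from 0.24 to 2.24 FPKM (2.78). SCP2, the thiolase and sterol carrier, had 53.67 and 38.71 FPKM.
HSD17B10 is 1 of the 3 proteins of mitochondrial RNase P. TRMT10C, the methyltransferase subunit, went from 51.67 to 21.37 FPKM (-1.27, -1.37 to -1.18), and KIAA0391, the nuclease subunit now called PRORP, from 23.36 to 13.94 FPKM (-0.74), beside -0.12 for HSD17B10. Of the 11 listed genes of mitochondrial RNA processing and isoleucine breakdown, all were tested, 0 were higher and 1 lower (TRMT10C), with a median of -0.01. ACAT1, the thiolase after HSD17B10 in isoleucine breakdown, went from 113.43 to 65.78 FPKM (-0.79), and DLD had 110.98 and 118.15 FPKM.
HSD17B8 shares its enzyme with CBR4. CBR4 went from 653 counts (5.17 FPKM) to 2434 counts (19.45 FPKM), a log2 ratio of 1.89 (1.79 to 2.04), beside 0.30 for HSD17B8. Of the 9 genes of mitochondrial fatty acid synthesis, all were tested, 1 was higher (CBR4) and 0 lower, with a median of 0.60. NDUFAB1, the acyl carrier protein, went from 149.61 to 86.86 FPKM (-0.78) and MCAT, which loads malonate on it, from 20.96 to 11.52 FPKM (-0.86), while OXSM, the ketoacyl synthase, went from 15.15 to 26.24 FPKM (0.79).

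**Figure D3:**
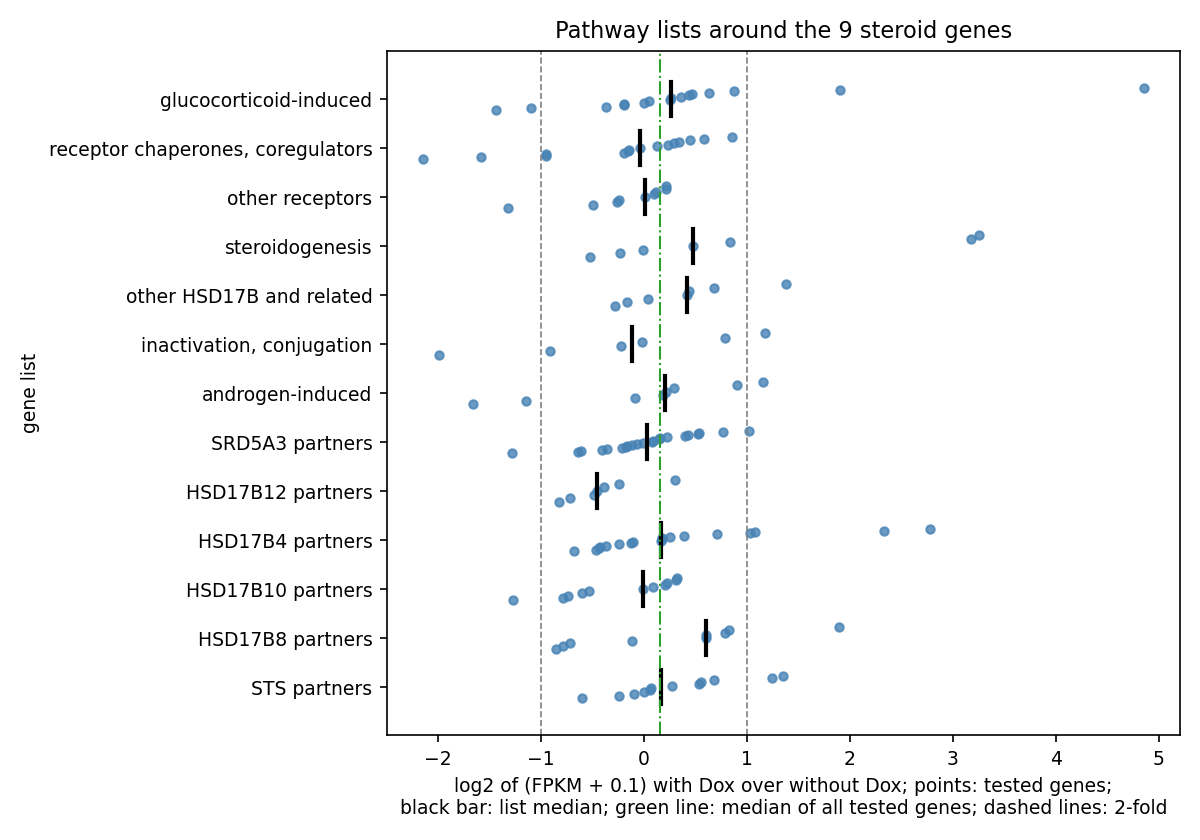
Log2 ratio of every tested gene of the 7 pathway lists and of the 6 lists of partners of single members, with a black bar at each median, dashed lines at 2-fold and a green line at the median of all tested genes (0.15). TSC22D3 (4.86) and FKBP4 (-2.15) are the farthest points on either side, and of these lists the elongation genes around HSD17B12 have the lowest median (-0.46). The 2 steroidogenesis points above 3 are CYP17A1 and CYP21A2.

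The genes most like SRD5A1 in level were looked for by the distance in log2(FPKM + 0.1) over both libraries. The 3 closest protein-coding genes were DNAJB9, an endoplasmic reticulum co-chaperone, at 13.09 and 25.86 FPKM, CIR1, a co-repressor, at 13.0 and 25.26 FPKM, and NEDD1, a centrosome protein, at 13.4 and 25.45 FPKM. With 2 libraries, such closeness says only that both levels were similar.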

How the data were processed

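Poly(A) RNA of 1 library per condition was sequenced as read pairs of 150 bases (NovaSeq), per the labels. The submitters' processing notes name Bowtie 0.12.2, HISAT2 2.1.0, StringTie 1.3.4d and the build hg19, without their roles. The authors deposited, per gene, expected counts, TPM, FPKM and mean and effective lengths in bases, in the column layout of RSEM. The expected counts are estimates. Over all listed genes, those with 0 counts included, 14.5% without Dox and 15.4% with Dox were not whole. Of the 204675 transcripts listed, 202888 have their identifier in GENCODE 29, whose GRCh38 coordinates are given by identifier.

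FPKM ratios, counting intervals, levels and counts past 2-fold were computed in Python 3.11.15 with numpy 2.4.6, pandas 2.3.3 and scipy 1.17.1, and figures with matplotlib 3.10.9. The study called genes with edgeR, which cannot estimate a dispersion from 1 library per condition, so its fold limit alone was kept. TMM factors (edgeR 4.0.16) and DESeq2 1.42.0 size factors in R 4.3.3 were computed on genes that had 10 or more counts in all. The members and lists were chosen with earlier results of these data known. Named genes are the members and, per list, the 3 highest in mean FPKM and up to 4 with the largest ratio among those with at least 5 FPKM, with receptors and steroid enzymes fixed by name and, for SRD5A1, the 3 closest genes. Other genes named, among them those that make up a small count, were chosen after their values were seen. PRORP was matched as KIAA0391. Promoters are from RefSeq, with 8 of 9 members matched. The log2 ratios, the counting intervals and the 2-fold rule were tested on simulated Poisson counts with the same effective length in both libraries. The other steps were not tested in this way. Alternatives covered the pseudocount, the filter, TPM, both scalings and centring on the median of all genes. A few genes on the lists are not reported here by name.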

Additional observations from a re-analysis of the deposited data

How the results depend on the processing

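No paired analysis was possible because there was 1 library per condition, and no library could be left out. NR3C1 stayed past 2-fold under all 8 alternatives, and SRD5A1 passed it with TPM alone among them, though its counts over library totals also gave 1.05. With TPM, 2 members were past 2-fold, and the log2 ratios were 2.054 for NR3C1, 0.491 for HSD17B12, 0.208 for HSD17B4, -0.023 for HSD17B10 and -0.459 for STS. With edgeR TMM factors they were 1.859 for NR3C1, 0.836 for SRD5A1, 0.303 for HSD17B12, 0.077 for HSD17B8, -0.058 for HSD17B4, -0.34 for HSD17B10, -0.607 for SRD5A3 and -0.766 for STS. With DESeq2 size factors they were, in that order, 1.848, 0.825, 0.292, 0.066, -0.069, -0.35, -0.618 and -0.777. Centred on the median of all genes they were 1.804 for NR3C1, 0.831 for SRD5A1, 0.242 for HSD17B12, 0.146 for HSD17B8, -0.041 for HSD17B4, -0.272 for HSD17B10 and -0.707 for STS. At a pseudocount of 1 FPKM, NR3C1 had 1.897 and SRD5A2 0.082. HSD17B4 alone changed sign among the members. Counts scaled by TMM and DESeq2 factors, which also leave out the division by length, gave a median of all tested genes of -0.04 and -0.05 in place of 0.15.

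Genes more than 2-fold higher numbered 1606 at a pseudocount of 1 FPKM, 4735 with no filter and 1256 at 5 FPKM or more, and those lower 1897 with no filter and 603 at 5 FPKM or more. Of the medians of 13 gene lists, 5 kept their sign under every alternative that gave a value, namely those of glucocorticoid-induced, androgen-induced, elongation, peroxisomal and mitochondrial fatty acid synthesis genes. The steroidogenesis median was 0.0 with no filter, -0.236 at 5 FPKM or more, 0.193 with TMM and 0.182 with DESeq2. That of the other dehydrogenases was 0.0 with no filter, and that of inactivation and conjugation 0.388 at 5 FPKM or more. The median around HSD17B10 was -0.299 with TMM and -0.31 with DESeq2, and that around HSD17B8 was 0.245 at 5 FPKM or more, 0.266 with TMM and 0.255 with DESeq2. The cause of these shifts was not tested. Depth limits SRD5A2, CYP17A1 and HSD11B2.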

Other observations

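The deposited tables give each gene a mean transcript length per library, and for a few genes this length moved the ratio. Of 159 tested genes on the lists, 9 had log2 ratios of FPKM and of counts over library totals that differed by over 0.5. Among them was EHHADH, the second multifunctional enzyme of peroxisomes, which went from 243 to 319 counts while its FPKM went from 2.98 to 1.82, as its mean length went from 2017 to 3850 bases. HSD17B6, which oxidises androstanediol, went from 71 to 109 counts while its FPKM went from 2.36 to 2.09. Among the tested members the 2 ratios differed by 0.12 at most, for HSD17B12. Which transcripts account for the lengths was not tested, since no values per transcript were used here.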
